A study of Homo sapiens with 4 samples.

Results

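The 40 genes described here encode the enzymes of glycolysis, the transporters that bring glucose into the cell and take lactate out of it, and the factors and targets of the hypoxia response. They were chosen by symbol, as listed members of these pathways, from the 20003 genes in the files, and 39 of them passed the level filter of the test, a mean of at least 1 RPKM (reads scaled to the length of the gene model and to the reads of the library) over the 4 libraries. The exception was CA9. The cells were HCT116, a human colorectal carcinoma line of epithelial origin. There were 2 groups with 2 libraries each: cells labelled wild type with the hairpin vector control shPLKO (libraries 1 and 2; the series text calls the control shScramble), and cells labelled NUDT21 knockdown with the hairpin shNUDT21 (libraries 1 and 5). Both groups are labelled as otherwise untreated and were grown in the same serum-containing medium in humidified air with carbon dioxide; no low-oxygen arm is labelled. It is not stated whether the library numbers stand for different hairpins or for replicates, or whether each library is a culture of its own, and a p-value here speaks only of the scatter among these libraries, possibly a technical one.

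Glycolysis splits glucose into pyruvate in a chain of enzymes from hexokinase to pyruvate kinase, and in fast-growing tumour cells much of that pyruvate is reduced to lactate by lactate dehydrogenase and exported by monocarboxylate transporters. Many of these genes are also targets of HIF, a pair of proteins whose alpha subunit is marked for destruction by oxygen-dependent prolyl hydroxylases and accumulates when oxygen is low. HIF binds the core motifs ACGTG and GCGTG. NUDT21, the small subunit of cleavage factor Im, recognises UGUA in pre-mRNA and takes part in the choice of the polyadenylation site.

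Promoters are shown for the members that passed the test and have a single start in RefSeq. The levels of these genes differed between the groups, and whether HIF acts on them was not tested. Each window runs from 250 bases before to 50 bases after the start, on the strand of the gene, in RefSeq's GRCh38.p14 coordinates; capitals mark ACGTG or GCGTG on either strand. ALDOA (3 listed starts) and SLC16A3 (5 listed starts) are left out by this rule, and SLC16A1 had no listed window. The genes shown therefore all fell, and neither SLC16A gene, which rose, is among them. Each ALDOA window held a match, as did some but not all of the SLC16A3 windows. The first 3 genes below are glycolytic enzymes, EGLN3 is an oxygen sensor and GALK1 is galactokinase.
ALDOC, chr17:28576846-28577145, minus strand: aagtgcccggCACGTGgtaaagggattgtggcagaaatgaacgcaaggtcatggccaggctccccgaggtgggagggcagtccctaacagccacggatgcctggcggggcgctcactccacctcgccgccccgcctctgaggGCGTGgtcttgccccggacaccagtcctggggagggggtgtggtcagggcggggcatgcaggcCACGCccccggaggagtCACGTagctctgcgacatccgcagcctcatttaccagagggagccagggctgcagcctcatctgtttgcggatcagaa
ENO2, chr12:6914330-6914629, plus strand: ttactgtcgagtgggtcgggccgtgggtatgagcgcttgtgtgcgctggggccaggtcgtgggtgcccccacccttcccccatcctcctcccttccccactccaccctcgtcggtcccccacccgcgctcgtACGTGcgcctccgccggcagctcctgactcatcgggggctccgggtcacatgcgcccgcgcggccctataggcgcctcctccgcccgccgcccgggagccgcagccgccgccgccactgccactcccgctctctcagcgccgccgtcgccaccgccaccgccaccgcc
PFKL, chr21:44299803-44300102, plus strand: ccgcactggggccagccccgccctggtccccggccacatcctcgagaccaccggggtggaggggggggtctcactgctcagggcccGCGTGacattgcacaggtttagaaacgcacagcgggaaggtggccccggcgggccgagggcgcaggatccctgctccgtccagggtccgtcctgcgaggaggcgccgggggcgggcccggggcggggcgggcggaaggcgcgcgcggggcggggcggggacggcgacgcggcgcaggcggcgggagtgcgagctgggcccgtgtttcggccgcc
EGLN3, chr14:33951025-33951324, minus strand: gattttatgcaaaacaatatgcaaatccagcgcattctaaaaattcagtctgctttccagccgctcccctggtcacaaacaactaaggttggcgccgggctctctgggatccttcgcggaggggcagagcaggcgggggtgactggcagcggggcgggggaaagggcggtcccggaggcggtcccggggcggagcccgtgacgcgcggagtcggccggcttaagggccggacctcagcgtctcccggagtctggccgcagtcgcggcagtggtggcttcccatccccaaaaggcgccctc
GALK1, chr17:75765143-75765442, minus strand: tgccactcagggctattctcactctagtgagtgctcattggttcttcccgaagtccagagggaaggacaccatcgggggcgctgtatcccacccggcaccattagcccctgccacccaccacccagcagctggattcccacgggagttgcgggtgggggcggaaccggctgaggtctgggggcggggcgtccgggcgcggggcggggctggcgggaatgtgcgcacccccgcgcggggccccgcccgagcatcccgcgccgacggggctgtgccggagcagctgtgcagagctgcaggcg
The ALDOC window held 5 matches, of which 2 are both strands of 1 palindromic CACGTG. The ENO2 and PFKL windows held 1 match each, and the windows of EGLN3 and GALK1 held 0. A window was listed for 35 of the 40 members, and 41 of their 63 windows (65.1%) held a match, against 61.5% of the 12822 windows of genes tested and 48.5% of all 35116 windows. Windows were counted per listed start, so genes with many starts weigh more. HK1 and PFKM have 7 starts each, some with overlapping windows, and most of their windows held no match. Taken singly the motifs differed in opposite directions: ACGTG was in 38.1% of member windows against 25.7% for genes tested, and GCGTG in 39.7% against 49.3%. A match describes the letters only.

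NUDT21 itself checked the labels. Reads gave 24.3 RPKM in shPLKO 1, 26.9 in shPLKO 2, 3.96 in shNUDT21 1 and 2.999 in shNUDT21 5, so both knockdown libraries lay below both controls (log2 fold change -2.58, SE 0.16, limma adjusted p 0.0406). The 4 libraries held between 29963980 and 30459886 reads, as recovered from the RPKM steps. Of 9 colorectal epithelial markers 6 were at 1 RPKM or more in every library, while VIL1, CDH17 and LGALS4 were under 1 RPKM in all of them. Of 14 markers of blood, endothelial, fibroblast and erythroid cells, 12 were under 1 RPKM in every library, COL1A1 and HBA1 being the others, and the sum of the 14 ran from 6.38 to 10.1 RPKM. Among the 6 expressed epithelial markers the keratin genes KRT8, KRT18 and KRT19 were lower in both knockdown libraries, of which KRT8 and KRT18 passed the test (limma adjusted p 0.0406 for each). EPCAM, CDH1 and CDX2 were higher in both knockdown libraries and did not pass. The sum over the 9 markers, 9219 to 9871 RPKM in control cells and 3427 to 4153 RPKM in the knockdown, followed the keratins; the part of these differences in the results below was not tested. Each library pools the RNA of many cells, so less RNA of 1 kind per cell and fewer cells that express it cannot be told apart. RPKM is relative to the reads of the library, so a level is a share and not an amount per cell.

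In the knockdown cells 4 genes of glycolytic enzymes fell, both lactate exporters rose, and the hypoxia genes had no common direction. Of the 39 members tested, 6 fell and 2 rose past the test over all genes (limma, Benjamini-Hochberg adjusted p under 0.05). Over all 11124 genes tested the test called 5.82%, with 3.21% lower and 2.61% higher. The genes that fell were GALK1, ENO2, ALDOA, PFKL, ALDOC and EGLN3, and those that rose were SLC16A3 and SLC16A1. Their adjusted p-values (limma) ran from 0.0406, the lowest that this design gave for any gene, to 0.0494, just under the threshold. With either control library left out the 8 calls were lost, as were nearly all calls over all genes. The median log2 fold change of the 39 was -0.13 with all 4 libraries, -0.16 without shPLKO 1 and -0.13 without shPLKO 2. With all 4 libraries, voom on recovered reads called the same 8.

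**Figure D1:**
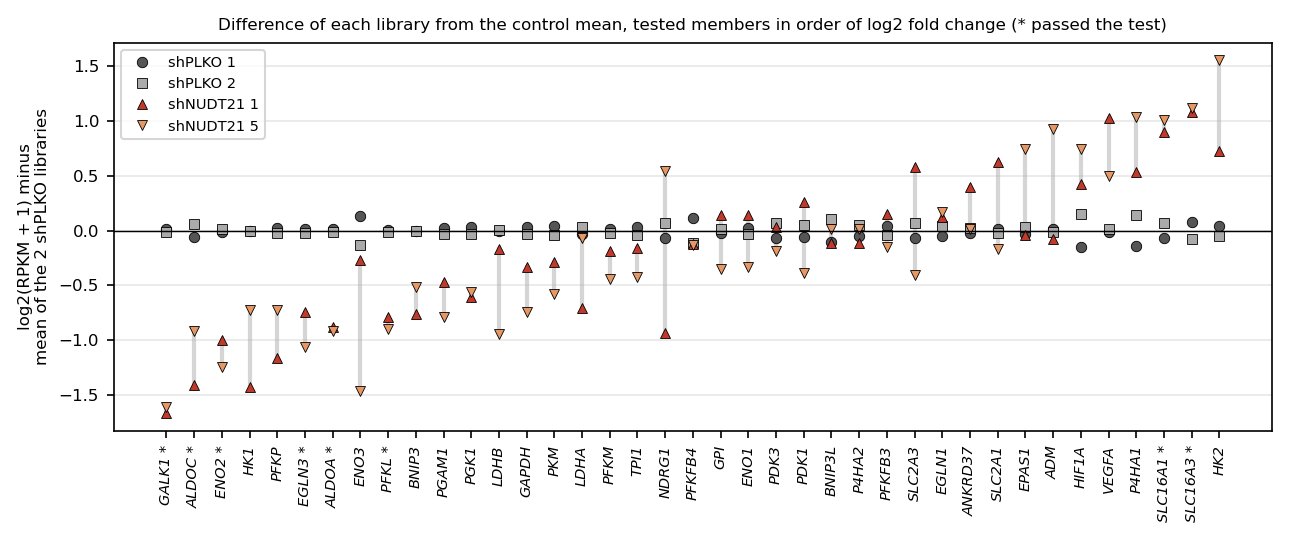
Difference of log2(RPKM + 1) in each of the 4 libraries from the mean of the 2 shPLKO libraries (vertical axis) for the 39 members tested (horizontal axis, in order of log2 fold change); grey bars join the 2 shNUDT21 libraries and asterisks mark the 8 members that passed the test. The aldolase, phosphofructokinase and enolase genes marked lie below 0 in both knockdown libraries, SLC16A1 and SLC16A3 lie above 0 in both, and NDRG1 lies on opposite sides.

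Across the 16 glycolytic enzymes with LDHA and LDHB, the knockdown levels were mostly below the controls. In 15 of these 18 genes both knockdown libraries stood below both controls, a pattern seen in 33.4% of all genes tested, and in 1, HK2, both stood above (32.8% of all genes). GPI and ENO1 had 1 knockdown library on each side. The median log2 fold change of the 18 was -0.57, against -0.0027 over all genes tested, and 4 of them fell. That median was -0.72 without shNUDT21 1 and -0.40 without shNUDT21 5. These genes are richer in GC than the rest, with a median of 55.1% against 50.1%. Once each library had been corrected for GC content and length the median was -0.55 and 1 of the 18, ENO2, passed. The same correction also lowered the calls over all genes, from 357 lower and 290 higher of 11124 to 116 lower and 130 higher of 11049.

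The summed level of the 18 enzymes was 5890 and 5700 RPKM in shPLKO 1 and 2 and 4596 and 3777 RPKM in shNUDT21 1 and 5. Both knockdown sums lay below both control sums, at 0.793 and 0.652 of the control mean. As a share of the RPKM of all genes the enzymes made up 1.35% and 1.34% in the controls and 1.07% and 0.946% in the knockdown. An exact permutation test of 2 libraries against 2 cannot go below a two-sided p of 0.333, so sums and shares are given as descriptions. GAPDH, which makes the NADH of the pathway, was the most abundant of the enzymes in both groups, and the smallest levels were those of ENO3, the muscle enolase.

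**Figure D2:**
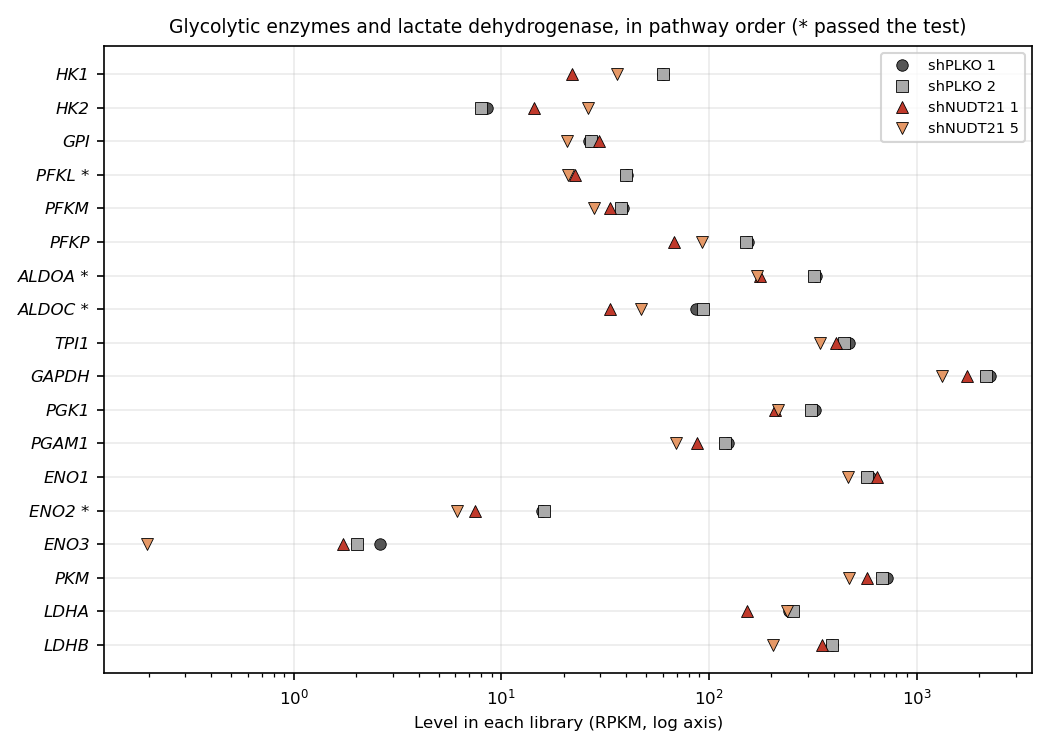
RPKM (log axis) of the 16 glycolytic enzymes and the 2 lactate dehydrogenase genes in the 4 libraries, in pathway order, with asterisks at the 4 genes that passed the test. The shNUDT21 symbols lie left of the shPLKO symbols for 15 of the 18 genes and right of them for HK2.

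At the entry of the pathway the 2 hexokinases went opposite ways without either passing the test. HK1, the hexokinase of most tissues, was at 60.3 and 60.4 RPKM in control cells and at 21.8 and 36.2 RPKM in shNUDT21 1 and 5 (log2 fold change -1.08, SE 0.26, limma adjusted p 0.0697). HK2, the isoform that tumours and hypoxic cells often raise, was at 8.53 and 7.94 RPKM in control cells and at 14.3 and 26.1 RPKM in the knockdown (log2 fold change 1.14, SE 0.30, limma adjusted p 0.0780). The groups did not overlap for either gene, which held for 66.2% of all genes tested. The knockdown libraries differed from each other by 1.66-fold and 1.83-fold, with shNUDT21 5 the higher for both. HK2 made up 12.4% and 11.6% of the summed RPKM of the pair in the controls and 39.6% and 42.0% in the knockdown. The pair together stood at 68.8 and 68.3 RPKM in the controls, 36.1 RPKM in shNUDT21 1 and 62.3 RPKM in shNUDT21 5, so their sum was far below control in 1 knockdown library and close to it in the other. GPI, the isomerase of the next step, had 26.3 and 27.0 RPKM in control cells and 29.4 and 20.7 RPKM in the knockdown.

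Phosphofructokinase, which commits sugar to glycolysis, is built from the products of PFKL, PFKM and PFKP. PFKL, the liver-type subunit, fell from 40.2 and 39.6 RPKM to 22.7 and 21.0 RPKM (log2 fold change -0.84, SE 0.12, limma adjusted p 0.0429). PFKP, the platelet-type subunit and the most abundant of these genes, was at 155 and 151 RPKM in control cells and at 67.7 and 92.2 RPKM in shNUDT21 1 and 5 (-0.94, SE 0.19, limma adjusted p 0.0565). The muscle-type PFKM had 38.6 and 37.6 RPKM against 33.4 and 27.8 RPKM. For each subunit gene both knockdown libraries lay below both controls. Their sum was at 0.536 and 0.611 of the control mean in shNUDT21 1 and 5. The share of PFKM in that sum was 16.5% in each control and 27.0% and 19.7% in the knockdown.

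Aldolase, which splits the sugar into its triose products, was lower through both of its expressed genes. ALDOA, the muscle and general isoform, fell from 327 and 320 RPKM to 175 and 171 RPKM (log2 fold change -0.90, SE 0.13, limma adjusted p 0.0421). ALDOC, the brain isoform and a known hypoxia target, fell from 86.5 and 94.1 RPKM to 33.5 and 47.3 RPKM (-1.16, SE 0.20, limma adjusted p 0.0494). The groups were far apart for both genes, and their sum was at 0.505 and 0.527 of the control mean. ALDOC made up 20.9% and 22.7% of the sum in the controls and 16.0% and 21.7% in the knockdown, so its share in shNUDT21 5 lay within the control range. In the annotation, exons of ALDOA overlap a gene on each strand and those of ALDOC overlap an antisense gene; whether strand was used in counting is not given in the sources used here. With a pseudocount of 0.1, with a filter at 5 RPKM, and with quantile normalization ALDOC did not pass. With no filter on low values 0 genes passed anywhere. After the GC and length correction ALDOA (log2 fold change -0.71, limma adjusted p 0.0533), ALDOC (-0.94, limma adjusted p 0.0885) and PFKL (-0.66, limma adjusted p 0.0604) did not pass. Over the 8 settings other than leaving out libraries, limma adjusted p ran from 0.0394 to 0.0653 for ALDOA, 0.0446 to 0.0885 for ALDOC and 0.0397 to 0.0653 for PFKL.

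In the middle and lower part of the chain 0 of the genes other than ENO2 passed the test, but levels in both knockdown libraries were below both controls for most. TPI1, the triose isomerase, had 471 and 447 RPKM in control cells and 410 and 341 RPKM in the knockdown. GAPDH had 2255 and 2162 RPKM against 1757 and 1323 RPKM (log2 fold change -0.53, SE 0.20, limma adjusted p 0.147). It is often used as a reference gene, and in these libraries its knockdown mean was 0.697 of its control mean. PGK1, the kinase that makes ATP in the middle of the pathway, had 325 and 312 RPKM against 208 and 216 RPKM (-0.58, SE 0.13, limma adjusted p 0.0648). PGAM1, the mutase after it, had 123 and 119 RPKM against 87.4 and 69.6 RPKM. GAPDH has 62 named pseudogenes in GENCODE, PGAM1 has 13 and LDHA has 6, and reads could be shared with them.

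The enolase genes behaved unequally. ENO2, the neuronal isoform and a hypoxia target, fell from 15.7 and 16.0 RPKM to 7.45 and 6.12 RPKM (log2 fold change -1.12, SE 0.14, limma adjusted p 0.0406). ENO1, the general isoform, had 596 and 574 RPKM in control cells and 647 and 466 RPKM in the knockdown, 1 library above and 1 below both controls. ENO3 had 2.60 and 2.01 RPKM in the controls, 1.73 RPKM in shNUDT21 1 and 0.195 RPKM in shNUDT21 5, where it rested on 15 reads. ENO2 made up 2.56% and 2.70% of the summed enolase RPKM in control cells and 1.13% and 1.30% in the knockdown, so the sum followed ENO1. The sign of ENO1 depended on the scaling, with a log2 fold change of -0.09 as tested and 0.10 after the GC and length correction. PKM, the pyruvate kinase gene, had 724 and 683 RPKM against 575 and 472 RPKM (-0.43, SE 0.17, limma adjusted p 0.154); the values are per gene and do not tell its M1 and M2 splice forms apart.

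The 2 lactate dehydrogenase genes were lower in both knockdown libraries, but each had its larger decrease in a different library. LDHA, whose subunit favours lactate formation and which HIF induces, had 244 and 255 RPKM in the controls, 152 RPKM in shNUDT21 1 and 238 RPKM in shNUDT21 5. LDHB, the heart-type subunit, had 393 RPKM in both controls, 351 RPKM in shNUDT21 1 and 204 RPKM in shNUDT21 5. Thus the larger decrease of LDHA was in library 1 and that of LDHB in library 5, and neither gene passed the test (limma adjusted p 0.324 and 0.243). LDHA made up 38.3% and 39.3% of the pair in the controls, 30.3% in shNUDT21 1 and 53.8% in shNUDT21 5, on opposite sides of the control values.

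**Figure D3:**
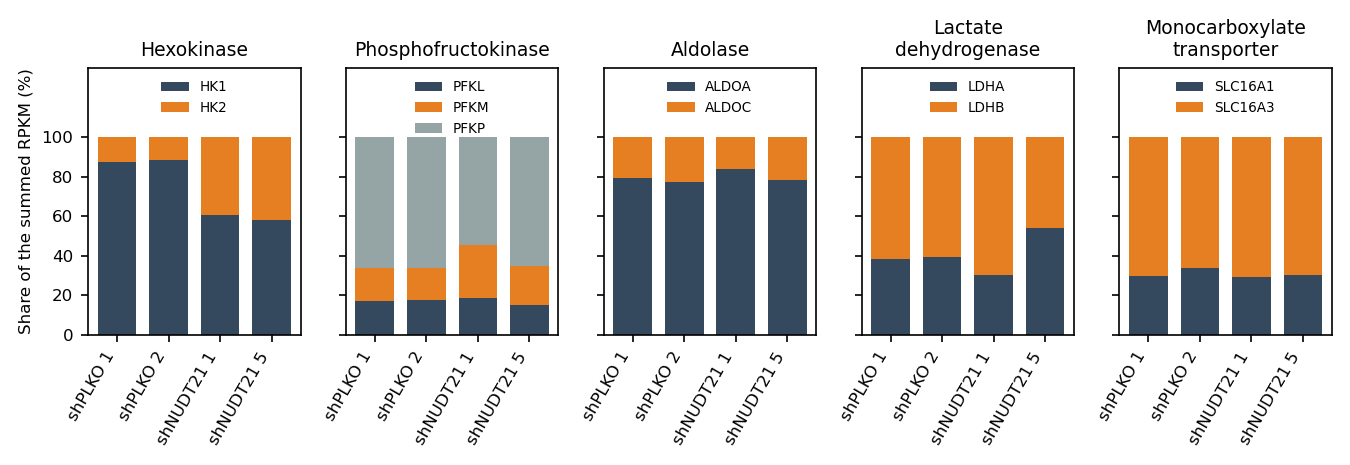
Share of each isozyme gene (stacked bars, percent) in the summed RPKM of its step in each of the 4 libraries. The HK2 share is 39.6% and 42.0% in the knockdown libraries against 12.4% and 11.6% in the controls, the LDHA share lies on both sides of the controls, and the SLC16A3 share stays between 66.2% and 70.9%.

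Both genes for lactate export rose, and to a similar level in both knockdown libraries. SLC16A3 encodes MCT4, the exporter of strongly glycolytic cells and a HIF target, and rose from 65.0 and 58.5 RPKM to 132 and 136 RPKM, 2.16-fold (log2 fold change 1.103, SE 0.13, limma adjusted p 0.0406). SLC16A1 encodes MCT1, which carries lactate in both directions, and rose from 27.2 and 29.9 RPKM to 54.1 and 58.4 RPKM, 1.97-fold (0.96, SE 0.13, limma adjusted p 0.0416). Their shares of the summed transporter RPKM hardly moved, with SLC16A3 at 70.5% and 66.2% in the controls and 70.9% and 69.9% in the knockdown. BSG, the chaperone of both transporters, named here after its values were seen, did not pass the test (397 and 384 RPKM in control cells and 405 and 390 RPKM in the knockdown,  limma adjusted p 0.918). In the annotation, exons of SLC16A3 overlap those of CSNK1D and exons of SLC16A1 overlap SLC16A1-AS1, both on the opposite strand. After the GC and length correction SLC16A3 passed and SLC16A1 did not (log2 fold change 0.76, limma adjusted p 0.0547, range over the 8 settings 0.0391 to 0.0653).

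Glucose import showed no common shift. SLC2A1, the GLUT1 transporter of most tumour cells, had 66.7 and 64.9 RPKM in the controls, 102 RPKM in shNUDT21 1 and 58.6 RPKM in shNUDT21 5. SLC2A3, the high-affinity GLUT3, had 2.24 and 2.56 RPKM in the controls, 4.06 RPKM in shNUDT21 1 and 1.57 RPKM in shNUDT21 5. Both genes were above control in the first knockdown library and below it in the other. GALK1, galactokinase, which feeds galactose towards glycolysis, fell from 77.8 and 76.0 RPKM to 23.6 and 24.6 RPKM, to 0.313 of control (log2 fold change -1.63, SE 0.12, limma adjusted p 0.0406). The knockdown libraries nearly coincided, and the call held after the GC and length correction (-1.38, limma adjusted p 0.0485, range over the 8 settings 0.0376 to 0.0653).

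The group means of the flux regulators lay close to control, between 0.883 and 1.01 of it. Of PFKFB3 and PFKFB4, which set the activator of phosphofructokinase, and PDK1 and PDK3, kinases that hold pyruvate out of mitochondria, 0 passed the test (limma, 0 at an unadjusted p under 0.05, 0 with voom). PFKFB3 had 16.3 and 15.4 RPKM in control cells and 17.7 and 14.2 RPKM in the knockdown. The other 3 genes had levels between 1.39 and 3.18 RPKM in all libraries. Of these, PDK1 had 2.12 and 2.35 RPKM in the controls, 2.87 RPKM in shNUDT21 1 and 1.47 RPKM in shNUDT21 5. Its near-equal group means thus average knockdown libraries on opposite sides of the controls. Log2 fold changes of the 4 lay between -0.13 and 0.00, and their SEs of 0.14 to 0.24 leave changes of modest size undetectable in these libraries.

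The hypoxia factors, sensors and targets had no common direction. Of 12 tested, 7 had a positive log2 fold change and 5 a negative one, with a median of 0.18, and 1 passed. That gene was EGLN3, a prolyl hydroxylase that marks the HIF alpha subunit and is itself a HIF target. It fell from 9.07 and 8.80 RPKM to 4.94 and 3.76 RPKM (log2 fold change -0.90, SE 0.16, limma adjusted p 0.0494), and EGLN1, the main hydroxylase in normal oxygen, had 9.27 and 9.92 RPKM against 10.6 and 10.9 RPKM. The EGLN3 call was lost with a pseudocount of 0.1, with a filter at 5 RPKM and without the intensity trend. It was also lost after the GC and length correction, and with no filter on low values, where 0 genes passed anywhere. Its limma adjusted p was between 0.0436 and 0.0835 over the 8 settings. HIF1A, the broadly expressed alpha subunit, had 18.7 and 23.4 RPKM in control cells and 28.4 and 35.6 RPKM in the knockdown (0.58, SE 0.19, limma adjusted p 0.109). EPAS1, the HIF alpha subunit known from endothelium and kidney cancer, had 23.5 and 24.7 RPKM in the controls, 23.4 RPKM in shNUDT21 1 and 41.2 RPKM in shNUDT21 5. Leaving out a knockdown library moved the median of the 12, which was 0.34 without shNUDT21 1 and -0.06 without shNUDT21 5.

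Among 8 tested hypoxia targets 0 passed (limma, 3 at an unadjusted p under 0.05, 0 with voom), and they spread in both directions. Over all genes tested, 33.9% had an unadjusted p under 0.05 (limma). VEGFA, the angiogenic growth factor, had 15.5 and 15.8 RPKM in control cells and 32.9 and 22.5 RPKM in the knockdown (log2 fold change 0.76, SE 0.21, limma adjusted p 0.0851). P4HA1, a collagen prolyl hydroxylase, had 17.2 and 21.1 RPKM against 28.1 and 40.1 RPKM (0.79, SE 0.22, limma adjusted p 0.0884), while its relative P4HA2 had 12.5 and 13.4 RPKM against 11.9 and 13.1 RPKM. BNIP3, a mitophagy receptor, had 42.9 RPKM in both controls and 24.9 and 29.7 RPKM in the knockdown (-0.64, SE 0.14, limma adjusted p 0.0628). The groups did not overlap for VEGFA, P4HA1 and BNIP3, a pattern seen in 66.2% of all genes tested. BNIP3 has 39 named pseudogenes in GENCODE, and its relative BNIP3L stayed between 15.8 and 18.6 RPKM. ANKRD37 was between 1.16 and 1.90 RPKM. CA9, a carbonic anhydrase that is a sensitive marker of HIF activity in tumours, was under the filter, with 0.443 and 0.297 RPKM in control cells and 0.191 and 0.107 RPKM in the knockdown, from 5 to 21 reads.

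NDRG1 and ADM showed how far the knockdown libraries stood apart. NDRG1, a stress and hypoxia gene of differentiation, had 142 and 156 RPKM in the controls, 77.3 RPKM in shNUDT21 1 and 218 RPKM in shNUDT21 5. Its group means were nearly equal (149 and 148 RPKM) although the knockdown libraries differed 2.82-fold, with 1 far below and 1 far above the controls. ADM, the vasodilator peptide adrenomedullin, had 21.5 and 20.9 RPKM in the controls, 20.03 RPKM in shNUDT21 1 and 41.3 RPKM in shNUDT21 5. Of the 39 members tested 12 (30.8%) differed by over 1.5-fold between the knockdown libraries, against 25.4% of all genes tested, while between the controls 0 of the 39 and 0.49% of all genes tested did so. In 9 of the 39 tested members 1 knockdown library lay above and 1 below both controls, against 20.6% of all genes.

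**Figure D4:**
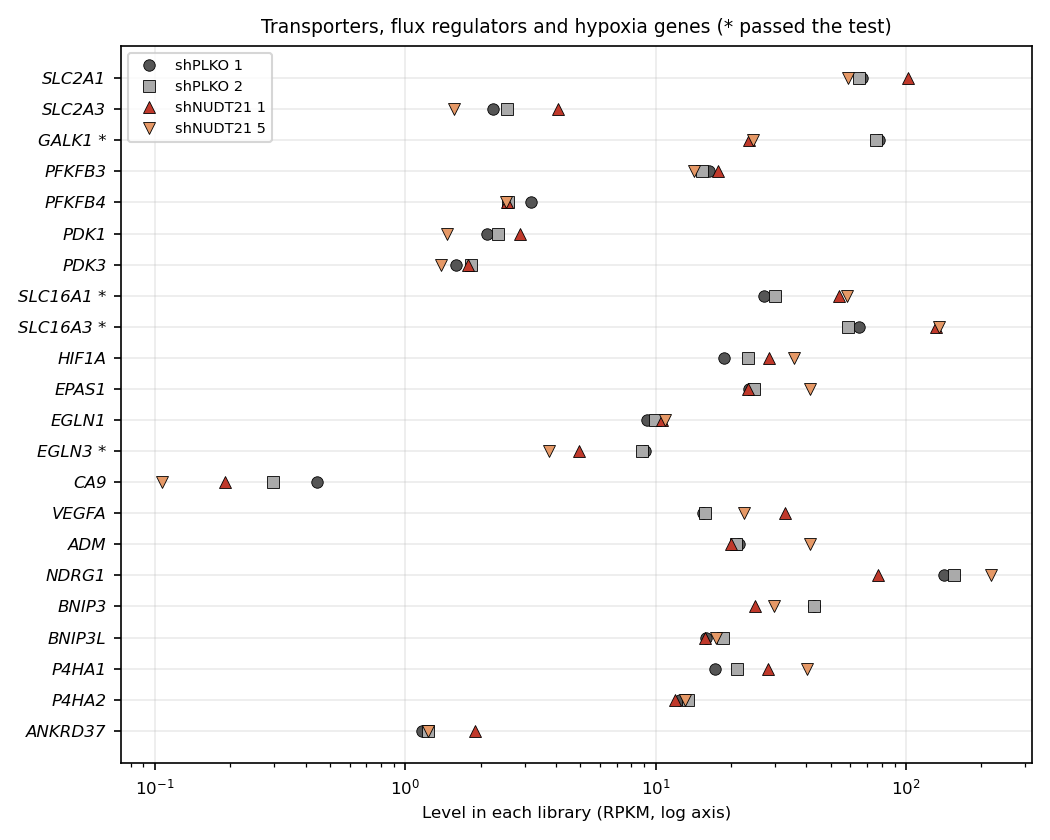
RPKM (log axis) of the 22 members outside glycolysis and lactate dehydrogenase in the 4 libraries; asterisks mark the 4 that passed the test. SLC16A1 and SLC16A3 stand right of the controls and GALK1 and EGLN3 left of them in both knockdown libraries, while NDRG1, SLC2A1 and SLC2A3 have 1 knockdown library on each side.

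Genes of the same pathways that are no members were read from 7 further lists. Of 128 tested, 3 rose and 1 fell, 3.13% called against 5.82% of all genes. An unadjusted p under 0.05 (limma) was seen in 35.9% of the 128, against 33.9% of all genes tested. By list it was seen in 12 of 24 other enzymes, 11 of 18 HIF regulators and 11 of 35 other hypoxia targets. Among 24 other enzymes of glycolysis, gluconeogenesis and glycogen, PYGB, a glycogen phosphorylase, rose from 68.5 and 64.2 RPKM to 117 and 122 RPKM (log2 fold change 0.84, SE 0.13, limma adjusted p 0.0439). Among 35 other hypoxia targets, NFIL3, a leucine zipper repressor, rose from 18.8 and 19.3 RPKM to 38.9 and 38.3 RPKM (0.98, SE 0.12, limma adjusted p 0.0406), and PPFIA4, a liprin, fell from 1.74 and 2.04 RPKM to 0.569 and 0.656 RPKM (-0.84, SE 0.13, limma adjusted p 0.0434). Among 18 HIF regulators, CREBBP, a coactivator of HIF, rose from 3.79 and 3.71 RPKM to 7.14 and 7.11 RPKM (0.77, SE 0.12, limma adjusted p 0.0444). CITED2, which competes with HIF for that coactivator, had 29.1 and 32.0 RPKM in control cells and 62.6 and 108 RPKM in the knockdown and did not pass (limma adjusted p 0.0566).

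In the remaining lists 0 genes passed with limma. Over all 11124 genes tested, 33.9% had an unadjusted p under 0.05 (limma), the share to set beside the counts below. Among 17 genes of galactose and other sugar entry, 5 had an unadjusted p under 0.05 and voom called 1. GFPT1, the first enzyme of the hexosamine pathway, had 11.1 and 12.2 RPKM in control cells and 35.3 and 23.2 RPKM in the knockdown (limma adjusted p 0.0507), and MPI, the mannose phosphate isomerase, had 26.6 and 25.3 RPKM against 16.4 and 15.8 RPKM (limma adjusted p 0.0507). Both had groups that did not overlap, in opposite directions, and 66.2% of all genes tested had groups that did not overlap. Of 14 genes of pyruvate entry into mitochondria 6 had an unadjusted p under 0.05 and voom called 0. PDHB, the E1 beta subunit of pyruvate dehydrogenase, had 70.9 and 66.9 RPKM in control cells and 48.4 and 46.7 RPKM in the knockdown ( limma adjusted p 0.0679). PDP1, the phosphatase that activates that complex, had 137 and 145 RPKM against 208 and 265 RPKM (limma adjusted p 0.0671). Of 10 other glucose and lactate transport genes 1 had an unadjusted p under 0.05, SLC2A6, and of 10 pentose phosphate genes the count was 0; voom called 0 in either list.

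UGUA, the motif that NUDT21 binds, was looked for as TGTA in the last 100 bases of the principal GENCODE v29 transcript, on the transcript strand. It was there in 19 of the 30 members with such a transcript (63.3%), in 53.5% of 7646 genes tested and in 50.2% of 444 genes called. Among the members that passed the test it was in 2 of 7, SLC16A1 and EGLN3, whose surroundings are shown as 30 bases with the motif in capitals.
SLC16A1: agggaataaggaaTGTAagtaaaggaaatc
EGLN3: aagacaggaatttTGTAtatttttaaccaa
The SLC16A1 motif ends 37 bases and the EGLN3 motif 95 bases before the annotated transcript end. The RPKM values do not show which polyadenylation site was used.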

How the data were processed

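Total RNA went into SMARTer mRNA-Seq libraries, per the labels' protocols. Bowtie 0.12.2 and hg18 stand in the submitters' processing notes without a stated role. How reads were counted, on which annotation, and whether strand or multiple mapping was considered is, for these libraries, not given in the sources used here. Each deposited file holds 1 value per gene, taken from the values to be RPKM made by the authors, not logged. Of 20030 rows 27 carried a date in place of a symbol and were left out.

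Whole reads, gene model lengths and library totals were recovered from the steps of the RPKM values with annotated lengths (832 lengths gave the same total, 68 the next), and intervals or floors from them would cover counting error only. Differences were tested two-sided on log2(RPKM + 1) in limma 3.58.1 (R 4.3.3), using an intensity trend, all 4 libraries and no covariate, for 11124 genes averaging 1 RPKM or more, Benjamini-Hochberg adjusted over all of them at 0.05 (degrees of freedom: 2 residual, 2.71 prior). Such fold changes understate the change of low genes. Alternatives were another pseudocount (0.1), no filter, a filter at 5 RPKM, no intensity trend, median centring, quantile normalization, removal of the GC content and gene length trend, voom on recovered reads (749 genes called), and leaving out each library. The members, the 7 other lists and their named genes (those past the test, then those with the lowest p) were chosen with earlier results of these data known. GENCODE v29 gave lengths, GC content, overlaps of at least 50 bases and pseudogene names, and RefSeq (GRCh38.p14) gave promoters. Gene coordinates of the files' build were not used. Figures were drawn with matplotlib 3.10.9.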

Additional observations from a re-analysis of the deposited data

How the results depend on the processing

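No paired analysis was possible because the groups share only 1 replicate number. The 8 calls among the 39 members lay close to the threshold, so small changes of setting removed some of them, with directions kept for all 8 under every alternative run. With no filter on low values 0 genes passed anywhere: 0 higher and 0 lower for all 17606 genes (limma; unadjusted p under 0.05 in 4762), the 40 members and the other lists, against 290 and 357, 2 and 6, and 3 and 1 as tested. With a filter at 5 RPKM 233 genes were lower and 0 of the other lists were. After correction for GC content and length 130 genes were higher and 116 lower, 1 member was higher (SLC16A3) and 2 were lower (ENO2 and GALK1), and 0 genes of the other lists were lower. In the other lists median centring gave 3 lower and quantile normalization 2. The log2 fold changes of members near 0 that changed sign were PFKFB3 (-0.033) with median centring, and SLC2A3 (-0.019), ENO1 (0.105), EGLN1 (-0.063) and P4HA2 (0.038) after that correction; 0 of these were called.

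Leaving out 1 library at a time moved the counts most. Without a control library the spread rested on the knockdown pair, and without a knockdown library on the closely matched controls, the lone library being assumed to vary like the others. The counts ran from 0 to 3766 higher and 0 to 4005 lower over all genes, from 0 to 10 higher and 0 to 22 lower among members, and from 0 to 42 higher and 0 to 51 lower in the other lists. The difference in the SLC16A3 share between groups ran from -0.133 to 4.19 percentage points. The lowest and highest log2 fold changes were -0.15 and 0.151 for PFKFB3, -0.158 and 0.0564 for BNIP3L, -0.108 and 0.0165 for P4HA2, -0.166 and 0.623 for SLC2A1, -0.403 and 0.577 for SLC2A3, -0.935 and 0.547 for NDRG1, -0.351 and 0.139 for GPI, -0.328 and 0.146 for ENO1, -0.386 and 0.259 for PDK1, -0.184 and 0.0352 for PDK3, -0.0405 and 0.749 for EPAS1 and -0.078 and 0.93 for ADM. Called members kept their sign, with GALK1 from -1.66 to -1.61 and ALDOC from -1.40 to -0.92. Depth limited CA9 (5 to 21 reads) and ENO3 (15 reads in shNUDT21 5). With 2 libraries a group, changes of modest size cannot be told from the spread.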
